A study of Mus musculus with 12 samples.

Results

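Gene expression was compared between spinal cords of ceftriaxone-treated mice with spinal muscular atrophy (SMA) and wildtype cords, on 8 of the 12 arrays of the study. The 8 arrays were chosen by their titles, 4 per group, and the other 4 arrays are SMA cords given vehicle. All mice are of the FVB line 4299, and all groups carry the transgenes human SMN2 and SmnΔ7 in the state SMN2+/+;SmnΔ7+/+. The wildtype group is mSmn+/-, with a single intact mouse Smn allele, and received vehicle. The SMA groups lack both mouse alleles. The first SMA group received vehicle and the other 200 mg/kg ceftriaxone daily by intraperitoneal injection from day 5, and all mice were killed at 13 days. The wildtype mice got no ceftriaxone, so genotype and drug differ together in this comparison. The labels mention both whole cords and lumbar segments, from mice perfused with paraformaldehyde, and give neither the sex of the mice nor whether cords were pooled. Nothing in them says how the 4 arrays of a group relate beyond being separate samples, so p-values measure the spread between these arrays.

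SMN protein assembles the small nuclear ribonucleoproteins that splice pre-mRNA, and motor neurons are the cells most sensitive to its loss. Loss of SMN is known to activate p53, the transcription factor that induces cell cycle arrest, DNA repair and apoptosis genes. Ceftriaxone is a beta-lactam antibiotic known for raising the astrocyte glutamate transporter that Slc1a2 encodes. The early postnatal cord is also the site of myelination and of the last steps of neuronal maturation.

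Several arrays stood apart from their group. Between wildtype array 2 and the rest of its group r was 0.924 to 0.930 over the tested probe sets, against 0.986 to 0.989 among those arrays and 0.977 to 0.982 between them and the ceftriaxone arrays. It carried thymus transcripts: all 21 of 21 thymocyte and T cell genes on the array were highest there among the 8 arrays, with a mean log2 level of 11.20 against 6.16 to 6.35 in the other wildtype and 6.11 to 6.81 in the ceftriaxone arrays. Rag1, a recombinase of developing lymphocytes, had signals of 48.2, 7862.5, 1.3 and 25.3 in wildtype and 0.5, 129.9, 12 and 2.2 in ceftriaxone arrays. Ceftriaxone array 2 was the highest of its group for 16 of the 21 genes. Wildtype array 3 was the highest for all 26 of 26 interferon-induced genes once wildtype array 2 was set aside, with a mean log2 level of 9.37 against 7.03 and 7.11 in wildtype arrays 1 and 4 and 7.19 to 7.23 in the ceftriaxone arrays. Xist, the RNA that silences 1 X chromosome in females, had signals of 49.4, 49.1, 2081.4 and 74.2 in wildtype and 1688.5, 1758.1, 2216 and 1773.6 in ceftriaxone arrays. Eif2s3y of the Y chromosome showed the opposite order, at 423.9, 523.7, 1.2 and 344.5 and 5, 0.5, 1 and 4. Thus all 4 ceftriaxone arrays but only 1 of 4 wildtype arrays read as female, and sex and group cannot be told apart except through a covariate. Within wildtype only array 3, with its high interferon level, read as female. The covariate can therefore not fully separate sex from other traits of that array.

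Smn1, the targeted gene, matched the labels. Its signals were 305.7, 414.3, 263.4 and 268.6 in wildtype, 3.6, 3.7, 3.9 and 5.7 in SMA vehicle and 15.8, 3.3, 6.4 and 3.6 in SMA ceftriaxone arrays. The ceftriaxone group lay -3.83 ± 0.19 (SE) on the log2 scale from wildtype (limma adjusted p = 2.07e-06). Against SMA vehicle the difference was 0.17 (adjusted p = 0.589). Smn1 lies under the signal filter, and the size of its fold change depends on the offset of 16 added to each signal: it was -5.45 with an offset of 1 and -2.39 with 64.

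Ceftriaxone-treated SMA cords differed from wildtype at 572 of 13575 tested probe sets (4.21%; limma moderated test, Benjamini-Hochberg adjusted p under 0.05). Of these, 446 were higher (3.29%) and 126 lower (0.928%), and 25 differed by over 2-fold (0.184%). The same model called 6401 probe sets (47.2%) between SMA vehicle and wildtype, 24.9% of the tested ones higher and 22.3% lower. Between both SMA groups it called 4879 (35.9%), with 18.3% higher and 17.7% lower with ceftriaxone. The first of these shares the wildtype arrays and the second the ceftriaxone arrays with the comparison reported here, so they are given as values only. Without wildtype array 2 the count was 1434 (10.6%), with 854 higher (6.29%) and 580 lower (4.27%), and all 572 were called again in the same direction. Without ceftriaxone array 3 the count was 164, without ceftriaxone arrays 2 or 4 it was 299 and 317, and without wildtype arrays 3 or 4 it was 303 and 321. With only the 8 arrays of both groups fitted, 94 were called higher (0.692%) and 17 lower (0.125%). With Xist signal as a covariate 80 probe sets were called, and 818 were when wildtype array 2 was also left out, 400 of them among the 572.

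**Figure D1:**
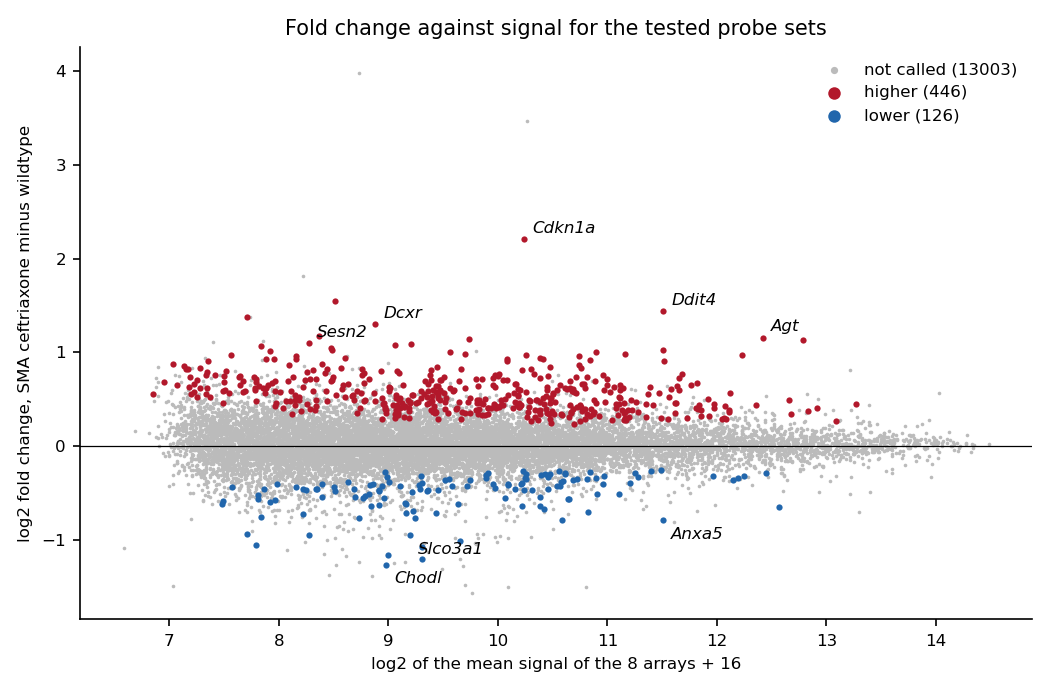
Each point is 1 of 13575 probe sets: the x axis is the log2 of the mean signal of the 8 arrays plus 16 and the y axis the log2 fold change of SMA ceftriaxone over wildtype. Red points (446) were called higher and blue points (126) lower at an adjusted p under 0.05, grey points were not called, and Cdkn1a stands highest among the called points at 2.21.

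Some of the genes that p53 activates were higher in ceftriaxone-treated SMA cords. Of 21 tested p53 targets, 8 were higher than in wildtype (against 3.29% of all probe sets), 0 were lower and 13 did not pass, with a median log2 fold change of 0.45 against 0.01 over all probe sets. Without wildtype array 2, 13 were higher (against 6.29%). With Xist as a covariate 3 were higher (against 0.479%), namely Cdkn1a, Plk2 and Aen, and the median was 0.45. With only the 8 arrays of both groups fitted, 4 were higher (against 0.692%). On wildtype array 2 the mean level of the list was 8.90, against 8.15 to 8.22 in the other wildtype and 8.74 to 9.12 in the ceftriaxone arrays. The part of the thymus transcripts in this was not tested.

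Cdkn1a, the inhibitor of cyclin-dependent kinases that halts the cell cycle, had the largest change among the called probe sets above the signal filter. Its signals were 362.4, 358.9, 443.3 and 474.3 in wildtype, 1855, 2039.7, 1688.1 and 1743.1 in SMA vehicle and 1529.1, 2054.5, 1857 and 2429.9 in SMA ceftriaxone arrays. Every SMA array of either group exceeded every wildtype array; over all tested probe sets, the ceftriaxone and wildtype arrays did not overlap for 11.6%, with 7.68% higher and 3.92% lower. The ceftriaxone mean of 1968 ± 377 (SD, n = 4) stood 4.63-fold above the wildtype mean of 409.7 ± 58.1 (2.21 ± 0.13 on the log2 scale, limma adjusted p = 5.78e-06). The difference between the SMA groups was 0.09 ± 0.13 (adjusted p = 0.647). A second Cdkn1a probe set was also higher, by 1.55.

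The 250 bases before a start site of Cdkn1a and of Ccng1, both called, are shown because these windows hold letters of the p53 response element (RefSeq, GRCm38.p6). Capitals mark matches to the 10-base p53 half-site consensus, a pattern that reads alike on both strands.
Cdkn1a, chr17:29090729-29090978, plus strand: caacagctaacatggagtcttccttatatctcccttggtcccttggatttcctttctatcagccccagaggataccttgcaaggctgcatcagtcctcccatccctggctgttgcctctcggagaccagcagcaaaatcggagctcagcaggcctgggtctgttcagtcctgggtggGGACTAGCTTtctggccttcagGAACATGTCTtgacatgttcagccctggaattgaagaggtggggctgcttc
Ccng1, chr11:40755287-40755536, minus strand: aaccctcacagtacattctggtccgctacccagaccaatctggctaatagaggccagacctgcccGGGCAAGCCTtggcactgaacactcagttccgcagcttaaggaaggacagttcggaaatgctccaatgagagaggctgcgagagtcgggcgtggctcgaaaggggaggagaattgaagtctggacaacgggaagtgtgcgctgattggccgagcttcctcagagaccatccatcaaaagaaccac
In Cdkn1a the matches begin 73 and 51 bases before this start and together meet the full-site pattern, which allows a spacer of up to 13 bases. The window of another Cdkn1a start site (chr17:29093519-29093818) held no half-site. In Ccng1 the match begins 185 bases before its start. Over 300-base windows, from 250 bases before to 50 after the start, a half-site was found in 2745 of 32851 windows (8.36%) and a full site in 24 (0.0731%). Among the tested p53 targets, 15 of 21 had windows in the reference, and 9 of their 22 windows held a half-site (40.9%). Of the 7 called targets with windows, 4 held a half-site and 1, Cdkn1a, a full site. These genes are known p53 targets, so the matches describe the list and no binding was measured here.

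Other p53 targets act in cell death, DNA damage and metabolism. Pmaip1 and Bbc3 encode pro-apoptotic BH3 proteins. Pmaip1 signals were 90.1, 121.3, 65.6 and 93.7 in wildtype and 122.4, 327.3, 228.3 and 495 in ceftriaxone arrays, with ceftriaxone array 1 only just above the highest wildtype array (log2 fold change 1.38 ± 0.32, adjusted p = 0.0316). Bbc3 signals were 176.8, 270.8, 170.8 and 115.5 and 301.6, 312.9, 415.8 and 383.5 (0.93 ± 0.20, adjusted p = 0.0219). Both groups were separate for both genes, against 7.68% of all probe sets with all ceftriaxone arrays higher. Sesn2, a stress-induced inhibitor of mTOR signalling, had 235.3, 219.4, 159.7 and 121.5 in wildtype and 346, 444.6, 437.2 and 382 in ceftriaxone arrays (1.10 ± 0.18, adjusted p = 0.00748). The exonuclease gene Aen (0.64 ± 0.09, adjusted p = 0.00377) and the kinase gene Plk2 (0.72 ± 0.10, adjusted p = 0.00291) were higher under every alternative tried, as was Cdkn1a.

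Ccng1, the gene of cyclin G1, and Polk, a DNA polymerase that copies past damaged bases, were also higher than in SMA vehicle cords. Ccng1 signals were 1643, 1996.6, 1918.4 and 1828.2 in wildtype, 1648.6, 1851.8, 1575.2 and 1593.9 in SMA vehicle and 2418.8, 2207.7, 2455.6 and 2751 in SMA ceftriaxone arrays. The ceftriaxone arrays were all above the arrays of both other groups, and exceeded wildtype by 0.41 ± 0.09 (adjusted p = 0.0221) and SMA vehicle by 0.55 ± 0.09 (adjusted p = 0.000422). Polk exceeded wildtype by 0.73 ± 0.17 (adjusted p = 0.0332) and SMA vehicle by 0.59 (adjusted p = 0.0178). Plk2 went the other way between the SMA groups, at -0.31 (adjusted p = 0.0241). Mdm2, the p53 ubiquitin ligase, did not pass against wildtype (0.20, adjusted p = 0.308) but differed from SMA vehicle by 0.64 (adjusted p = 0.000544). Perp and Psrc1 passed only without wildtype array 2, where their fold changes were 1.72 and 1.54 (adjusted p = 0.000719 for both). That array read 428 and 233 against at most 78.2 and 67.7 for Perp and Psrc1 on the other wildtype arrays.

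Pmaip1 lost its call without ceftriaxone array 2, 3 or 4 or wildtype array 1, 3 or 4 (adjusted p from 0.0503 to 0.0876). Polk lost it without ceftriaxone array 2, 3 or 4 or wildtype array 1, 3 or 4 (adjusted p from 0.051 to 0.0889). Bbc3 lost it without ceftriaxone array 3 or 4 or wildtype array 3 (adjusted p from 0.0567 to 0.0785), and Ccng1 without ceftriaxone array 3 or 4 or wildtype array 4 (adjusted p from 0.0537 to 0.0683). With Xist as a covariate 5 of the 8 did not pass, while their fold changes stayed positive. Sesn2 was at 1.11 (adjusted p = 0.0591), Pmaip1 at 1.63 (0.0904), Ccng1 at 0.41 (0.117), Bbc3 at 0.85 (0.144) and Polk at 0.60 (0.215).

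**Figure D2:**
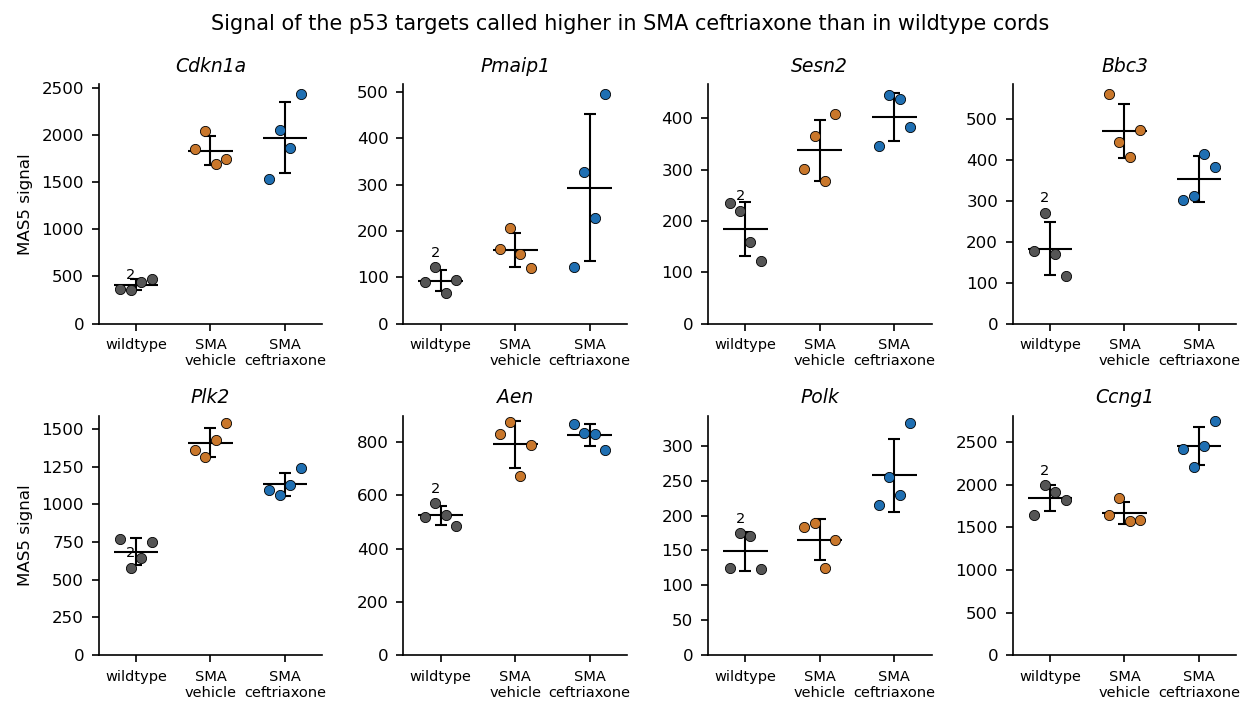
MAS5 signal (y axis, from 0) of the 8 called p53 targets on each array of wildtype, SMA vehicle and SMA ceftriaxone cords. Points are arrays, bars the mean and SD (n = 4), and the digit 2 marks the wildtype array with thymus transcripts. All 4 ceftriaxone arrays lie above all 4 wildtype arrays in every panel, against 7.68% of all tested probe sets. The genes are shown because they were called, so this separation is no further support.

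Genes induced by glucocorticoids and fasting were higher in part, unevenly across the ceftriaxone arrays. Of 20 tested, 5 were higher (against 3.29% of all probe sets) and 0 lower, all 20 had a positive log2 fold change and the median was 0.50. Without wildtype array 2, 11 were higher (against 6.29%). With Xist as a covariate 1 was (against 0.479%), and the median was 0.59. That gene is Cdkn1a, which is also on the p53 list. With only the 8 arrays of both groups fitted, 2 were higher (against 0.692%). The mean level was 9.53, 10.10, 9.69 and 10.49 on ceftriaxone arrays 1 to 4 and 9.15 to 9.31 in wildtype. Ceftriaxone arrays 2 and 4 both exceeded arrays 1 and 3 for 18 of the 23 genes on the array.

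Ddit4, a stress-induced inhibitor of mTOR signalling, had signals of 2521.8, 2566.6, 643 and 1121.8 in wildtype and 3572.6, 4248.6, 3353.5 and 5192.5 in ceftriaxone arrays. The wildtype arrays were spread widely, yet all lay below the ceftriaxone arrays (1.44 ± 0.34, adjusted p = 0.0339). Mt2, a metallothionein that binds zinc and copper, had 3857.7, 2652.9, 5538.4 and 5547.3 and 5942.9, 11490.8, 7897.5 and 13400.7 (1.13 ± 0.27, adjusted p = 0.0328). Errfi1, a feedback inhibitor of the EGF receptor, rose by 0.69 ± 0.10 (adjusted p = 0.00389) and Klf15, a transcription factor of fasting metabolism, by 0.94 ± 0.18 (adjusted p = 0.0127). With Xist as a covariate Ddit4 (adjusted p = 0.0545), Mt2 (0.1555), Errfi1 (0.0545) and Klf15 (0.07725) did not pass. Sult1a1, a sulfotransferase, read 55.1, 105.6, 107.4 and 105.1 in wildtype and 128.6, 741.6, 203.5 and 811.1 in ceftriaxone arrays, high on arrays 2 and 4 alone, and did not pass (1.82 ± 0.49, adjusted p = 0.0565). Ddit4 lost its call without ceftriaxone array 1, 2, 3 or 4 or wildtype array 4 or vehicle array 2 or 3 (adjusted p from 0.0523 to 0.0911), and Mt2 lost its call without ceftriaxone array 2, 3 or 4 or wildtype array 1 or vehicle array 3 (adjusted p from 0.0511 to 0.0926).

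The genes Agt, Dcxr and Apoc1 stood above both other groups, and ceftriaxone arrays 2 and 4 were the highest for all 3. Agt encodes angiotensinogen, which astrocytes make in the central nervous system. Its signals were 3094.7, 2443.3, 4082.2 and 3654.3 in wildtype, 3597.3, 4713.9, 2946.5 and 2601.6 in SMA vehicle and 4774.4, 9461.3, 6186.1 and 10042.8 in SMA ceftriaxone arrays. Every ceftriaxone array was above every other array, by 1.16 ± 0.25 against wildtype (adjusted p = 0.0216) and 1.10 ± 0.25 against SMA vehicle (adjusted p = 0.00372). Dcxr, a reductase of sugars and dicarbonyls, read 239.1, 337.2, 216.8 and 219.2, 357.5, 433.2, 273.7 and 208.2 and 442.1, 720.3, 585.3 and 883.8 in the same 3 groups. It exceeded wildtype by 1.30 ± 0.24 (adjusted p = 0.0114) and SMA vehicle by 1.02 ± 0.24 (adjusted p = 0.00496). Apoc1, an apolipoprotein gene, exceeded wildtype by 1.14 ± 0.22 (adjusted p = 0.014) and SMA vehicle by 0.88 ± 0.22 (adjusted p = 0.00662). The differences of SMA vehicle from wildtype were 0.05, 0.29 and 0.26 for Agt, Dcxr and Apoc1, none of which passed. With Xist as a covariate neither Agt (1.14, adjusted p = 0.122) nor Apoc1 (0.97, adjusted p = 0.117) passed against wildtype. With the 3 prime to 5 prime Gapdh ratio, a measure of RNA quality, as a covariate Agt was at 0.96 (adjusted p = 0.0908) and Apoc1 at 1.02 (adjusted p = 0.0623), while Dcxr passed with either covariate. Agt also lost its call without ceftriaxone array 2, 3 or 4 (adjusted p from 0.0514 to 0.0661). It lost it too with only the 8 arrays of both groups fitted (adjusted p = 0.0643).

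**Figure D3:**
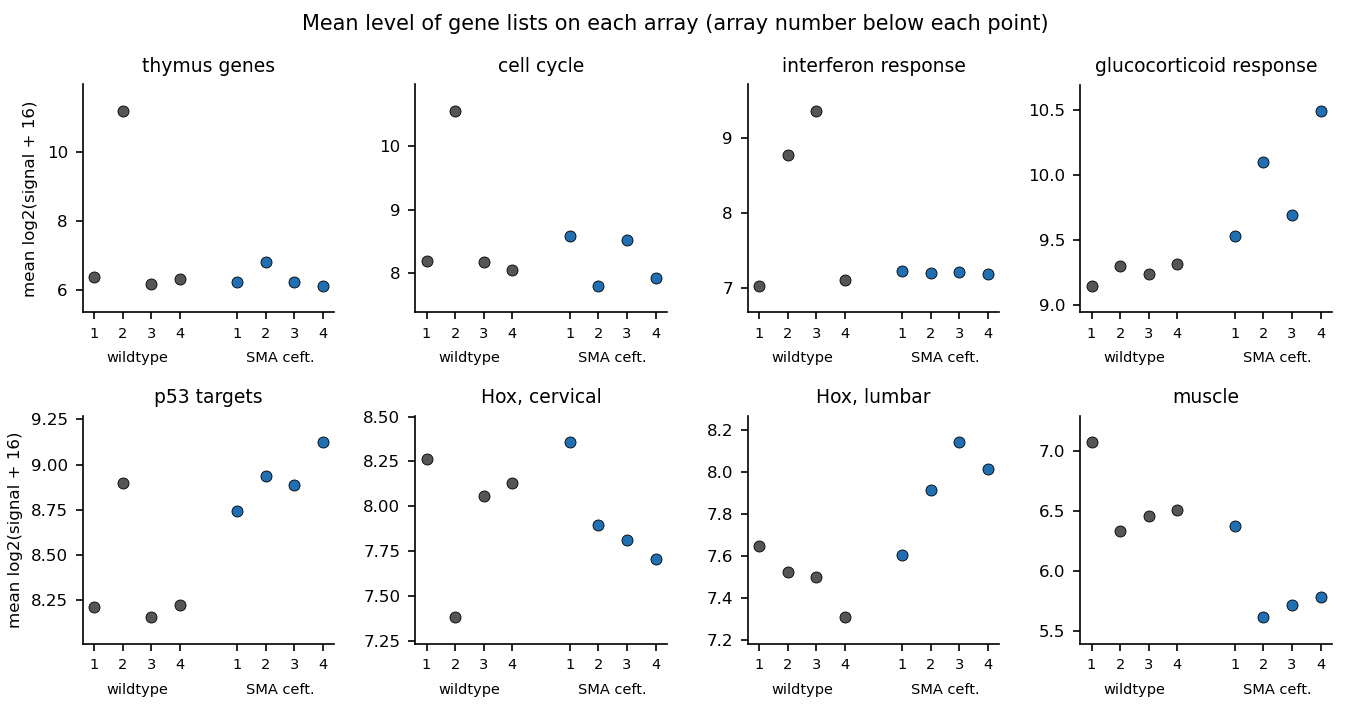
Mean log2(signal + 16) of 8 gene lists (y axis) on wildtype arrays 1 to 4 (grey) and SMA ceftriaxone arrays 1 to 4 (blue); each point is the mean over the genes of the list on the array. Wildtype array 2 is alone in its thymus level of 11.20, wildtype array 3 has the highest interferon level at 9.37, and ceftriaxone arrays 2 and 4 have the highest glucocorticoid levels at 10.10 and 10.49.

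Of 9 tested motor neuron genes, 2 were lower than in wildtype (against 0.928% of all probe sets) and 0 higher, and the median was -0.31. With Xist as a covariate 0 passed (0.479% of all probe sets were higher and 0.11% lower). Chodl, a marker of fast motor neurons, had signals of 921.9, 576.7, 543.8 and 735.2 in wildtype, 639.8, 1012.7, 884.9 and 702.5 in SMA vehicle and 404.2, 217.8, 328 and 190 in SMA ceftriaxone arrays. All ceftriaxone arrays were below all 8 other arrays. The difference was -1.27 ± 0.23 from wildtype (adjusted p = 0.012) and -1.49 ± 0.23 from SMA vehicle (adjusted p = 0.000399), while SMA vehicle and wildtype differed by 0.23 (adjusted p = 0.449). Calcb, which encodes the beta form of calcitonin gene-related peptide found in motor and sensory neurons, had 788.2, 527.4, 659.7 and 779.2, 444, 892.6, 741.1 and 463.3 and 374.8, 296.8, 266.3 and 257.5. It was again lowest on the 4 ceftriaxone arrays, by -1.16 ± 0.21 against wildtype (adjusted p = 0.0122), and was also called against SMA vehicle (adjusted p = 0.00296).

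Other motor neuron genes did not pass with all arrays, and 3 of the 9 tested had a positive log2 fold change, of at most 0.33. Prph, the intermediate filament peripherin, differed from wildtype by -0.47 (adjusted p = 0.229), and by -0.64 without wildtype array 2 (adjusted p = 0.0481). The vesicular acetylcholine transporter gene Slc18a3 differed by -0.13 (adjusted p = 0.717) and the choline transporter gene Slc5a7 by -0.31 (adjusted p = 0.323). Nefh, the heavy neurofilament of large axons, was lower, at 8288.5, 5222.6, 7764.4 and 8439.9 in wildtype and 4638.1, 4600.6, 4235.8 and 5062.3 in ceftriaxone arrays (-0.66 ± 0.14, adjusted p = 0.0249). In bulk tissue, fewer cells of a type and less RNA per cell cannot be told apart. With Xist as a covariate Chodl and Calcb reached adjusted p-values of 0.11 and 0.104, and Nefh lost its call without ceftriaxone array 1, 2 or 3 or wildtype array 3 or 4 (adjusted p from 0.0515 to 0.085).

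**Figure D4:**
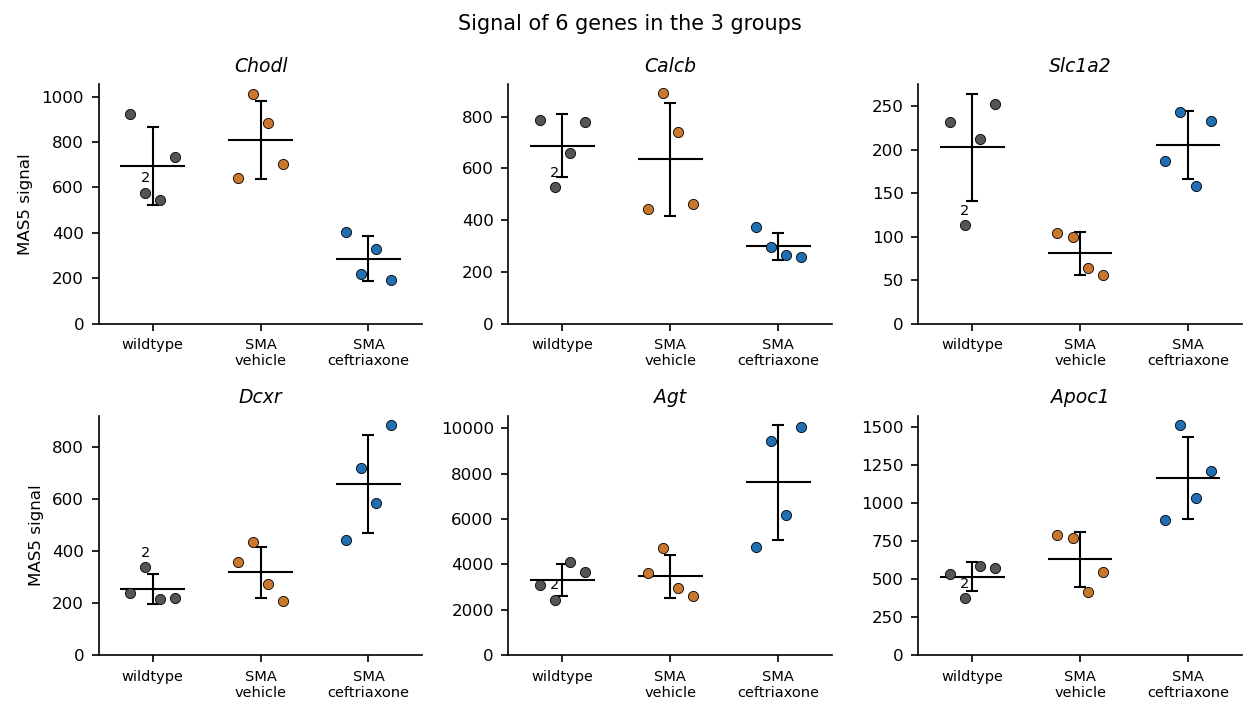
MAS5 signal (y axis, from 0) of 6 genes on each array of the 3 groups, with the mean and SD (n = 4) as bars and the digit 2 at wildtype array 2. Chodl and Calcb are lowest and Dcxr, Agt and Apoc1 highest on the ceftriaxone arrays, while Slc1a2 is lowest in SMA vehicle.

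Whether myelin genes passed against wildtype depended on the arrays fitted. In the model of all 3 groups none of 22 tested genes of mature oligodendrocytes and myelin passed in either direction, with or without wildtype array 2, and the median log2 fold change was -0.32 (-0.50 without that array). All 22 were called lower in SMA vehicle than in wildtype (against 22.3% of all probe sets), with a median of -2.60. All 22 were called higher in SMA ceftriaxone than in SMA vehicle (against 18.3%), with a median of 2.18. The ceftriaxone mean was below the mean of wildtype arrays 1, 3 and 4 for all 22 genes, and all 4 ceftriaxone arrays were below all 3 of these for 14. The shares of all probe sets that lay this way were not counted. When the vehicle arrays were left out of the fit together with wildtype array 2, 12 of the 22 were lower (against 4.01% of all probe sets), and with wildtype array 2 kept 0 were (against 0.125%). Klk6, a protease of mature oligodendrocytes, illustrates the spread: it read 734.6, 445.3, 920.8 and 881.7 in wildtype and 399.3, 452.8, 352.1 and 601 in ceftriaxone arrays (-0.68 ± 0.34, adjusted p = 0.294). Anln read 1397.5, 1333.7, 1700.2 and 1699.3 and 872.9, 991.3, 871.5 and 1299.7 (-0.61 ± 0.22, adjusted p = 0.136), with the groups separate.

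Genes of cholesterol synthesis, which supplies myelin, gave 0 calls among 18 with all arrays (median -0.25). Without wildtype array 2, 11 were lower, against 4.27% of all probe sets (median of the list -0.36). All 4 ceftriaxone arrays were below wildtype arrays 1, 3 and 4 for 12 of the 18, and the share of all probe sets separated in this way was not counted. Msmo1, a sterol demethylase, had signals of 5541.6, 3970.4, 6197.9 and 5631.6 in wildtype and 4037.2, 4471.7, 3973.2 and 3992.7 in ceftriaxone arrays. Only wildtype array 2 reached down into the ceftriaxone range, and the difference was -0.35 with it (adjusted p = 0.128) and -0.49 without it (adjusted p = 0.00497). The level of the list on that array was 10.85 against 11.29 to 11.35 on the other wildtype and 10.93 to 11.08 on the ceftriaxone arrays.

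Some genes of immature and migrating neurons were above wildtype. Of 19 tested, 5 were higher (against 3.29% of all probe sets) and 0 lower (median 0.31), while 18 passed as higher in SMA vehicle cords against wildtype (against 24.9%, median 1.54). With Xist as a covariate 2 of the 19, Nnat and Crmp1, were higher in ceftriaxone than in wildtype cords (against 0.479%). Nnat, an imprinted gene of developing neurons, had signals of 3931.1, 2773.4, 3174.6 and 3049.4 in wildtype, 11506.9, 12518.1, 13518.4 and 13807.1 in SMA vehicle and 6023.5, 5640.4, 7635.2 and 6005.6 in SMA ceftriaxone arrays. The 3 groups were separate, and ceftriaxone cords lay 0.97 ± 0.12 above wildtype (adjusted p = 0.00173) and -1.03 from SMA vehicle (adjusted p = 6.32e-05). Crmp1, which acts in axon guidance, read 2477.3, 1430.1, 1814.2 and 1947.9, 8827.9, 9669.3, 10048 and 10772.2 and 4635.5, 3185.6, 4068.8 and 3587.2, a rise over wildtype of 1.02 ± 0.15 (adjusted p = 0.00389). Cxadr, an adhesion molecule of the developing nervous system, exceeded wildtype by 0.96 (adjusted p = 0.0149), Basp1, a growth cone protein, by 0.44 (adjusted p = 0.0163), and Dpysl3, a cytoskeletal regulator of growth cones, by 0.64 (adjusted p = 0.0481). Cxadr lost its call without ceftriaxone array 3 (adjusted p = 0.0536) and Basp1 without ceftriaxone array 3 (adjusted p = 0.0636). Dpysl3 lost it without ceftriaxone array 1, 2 or 3 or wildtype array 3 or 4 or vehicle array 1, 2, 3 or 4 (adjusted p from 0.0614 to 0.144).

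Among 23 pan-neuronal and synaptic genes, 4 were higher (against 3.29% of all probe sets) and 1 lower (Nefh, against 0.928%), with a median of 0.15. Without wildtype array 2, 4 were higher (against 6.29%) and 4 lower (against 4.27%), and the median was 0. With Xist as a covariate 2 were higher (against 0.479%) and 0 lower. With only the 8 arrays of both groups fitted, 0 were called (against 0.692% higher and 0.125% lower). Gap43, the growth-associated protein of extending axons, read 2604.5, 2146.6, 2553.9 and 2254.6 in wildtype and 4637, 2981.9, 4848.4 and 3658.2 in ceftriaxone arrays (0.73 ± 0.14, adjusted p = 0.0152). The exocytosis genes Stx1a (0.47, adjusted p = 0.0125) and Cplx2 (0.75, adjusted p = 0.0307) and Elavl4, which encodes an RNA-binding protein of neurons (0.40, adjusted p = 0.0228) were also higher. Gap43 lost its call without ceftriaxone array 3 (adjusted p = 0.0573) and Stx1a without ceftriaxone array 3 (adjusted p = 0.0535). Elavl4 lost it without ceftriaxone array 1 or 3 or wildtype array 3 (adjusted p from 0.051 to 0.0833) and Cplx2 without ceftriaxone array 1, 2 or 3 or wildtype array 3 (adjusted p from 0.065 to 0.0888).

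Slc1a2 signals of ceftriaxone and wildtype cords overlapped. Its signals were 232.6, 113, 212.3 and 253.1 in wildtype, 104.6, 99.2, 63.9 and 55.7 in SMA vehicle and 187.5, 243.2, 158.6 and 233.4 in SMA ceftriaxone arrays. The difference from wildtype was 0.06 ± 0.25 (adjusted p = 0.932) and that from SMA vehicle 1.21 ± 0.25 (adjusted p = 0.00209). Slc1a3, the other main astrocyte glutamate transporter, was higher than in wildtype, at 1315.6, 887.6, 1244.1 and 1470.9 and 1723.9, 2174.9, 2147.7 and 2754.4 (0.84 ± 0.17, adjusted p = 0.0195), and differed from SMA vehicle by 0.01 (adjusted p = 0.98). It was the only gene called among 12 of glutamate transport and metabolism. It was also 1 of 3 astrocyte genes called higher among 18 (0 lower, median 0.27), against 3.29% of all probe sets. The others were Aldh1l1, a folate enzyme that marks astrocytes (0.61, adjusted p = 0.016), and the growth factor receptor gene Fgfr3 (0.57, adjusted p = 0.035). The astrocyte filament gene Gfap read 5871.6 to 10736.6 in wildtype and 9121.5 to 9530.7 in ceftriaxone arrays (0.13, adjusted p = 0.776). Slc1a3 lost its call without ceftriaxone array 2, 3 or 4 (adjusted p from 0.0505 to 0.0622), and Fgfr3 without ceftriaxone array 1, 2 or 4 or wildtype array 3 or vehicle array 3 (adjusted p from 0.0544 to 0.0957). With array medians set equal none of the 3 astrocyte genes passed (adjusted p = 0.0517 for Slc1a3). With Xist as a covariate no gene of the astrocyte or glutamate transport lists passed (adjusted p = 0.113 for Slc1a3, 0.118 for Aldh1l1 and 0.114 for Fgfr3). None passed either with only the 8 arrays of both groups fitted (0.692% of all probe sets were higher and 0.125% lower).

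Of 12 oligodendrocyte precursor genes, 3 were higher (against 3.29% of all probe sets) and 0 lower. Pdgfra, the growth factor receptor of these cells, read 2022.8, 1518, 1692.2 and 1841.4 in wildtype and 3273.2, 2510.1, 2613.5 and 2513.7 in ceftriaxone arrays (0.62 ± 0.10, adjusted p = 0.00758). Ptprz1, a phosphatase receptor, was higher by 0.60 (adjusted p = 0.0105) and Cspg5, a proteoglycan, by 0.52 (adjusted p = 0.0416). Cspg5 lost its call without ceftriaxone array 1, 2 or 3 or wildtype array 3 or 4 or vehicle array 1, 2, 3 or 4 (adjusted p from 0.0597 to 0.136). Of 8 glutamate receptor genes 2 were higher (against 3.29%), the metabotropic Grm8 (0.56, adjusted p = 0.028) and the kainate subunit Grik5 (0.60, adjusted p = 0.0287). Grm8 lost its call without ceftriaxone array 2, 3 or 4 or wildtype array 3 or 4 (adjusted p from 0.0524 to 0.0945) and Grik5 without ceftriaxone array 1, 2 or 3 or wildtype array 4 (adjusted p from 0.0538 to 0.0813). With only the 8 arrays of both groups fitted, neither Grm8 (adjusted p = 0.0889) nor Grik5 (0.0844) passed. Nfe2l2, the antioxidant transcription factor NRF2, read 677.8, 937.2, 804.5 and 825.7 in wildtype and 636, 711.9, 599.7 and 771.5 in ceftriaxone arrays and did not pass (-0.25, adjusted p = 0.342). Of 23 NRF2 and antioxidant genes 2 were higher (against 3.29%), the glutathione transferases Gstm1 (0.92, adjusted p = 0.00737) and Mgst1 (0.60, adjusted p = 0.0113). With Xist as a covariate no gene of the precursor, glutamate receptor or NRF2 lists passed (0.479% of all probe sets were higher and 0.11% lower). Adjusted p was then 0.06025 for Gstm1, 0.0644 for Mgst1, 0.0577 for Pdgfra and 0.0918 for Ptprz1.

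Hox genes, whose expression follows position along the cord, were called in part. Of 8 lumbar to sacral genes 3 were higher (against 3.29% of all probe sets) and 0 lower (median 0.45), and of 10 cervical to thoracic genes 0 passed (median 0.07, and -0.17 without wildtype array 2). The difference between both lists was not tested. With Xist as a covariate 2 of the 8 lumbar to sacral genes were higher (against 0.479%), and no cervical to thoracic gene passed. Hoxd9 read 518.9, 512.3, 454.4 and 432.3 in wildtype, 1268, 1344.3, 1077.7 and 1350.7 in SMA vehicle and 669.2, 909.5, 894.9 and 1036.5 in SMA ceftriaxone arrays (0.84 ± 0.13 over wildtype, adjusted p = 0.00402). Hoxd10 was higher by 0.98 (adjusted p = 0.0201) and Hoxa10 by 0.52 (adjusted p = 0.0339). Ceftriaxone array 1 was the highest of its group for 14 of 16 cervical to thoracic genes and the lowest for 6 of 11 lumbar to sacral genes. The part of the cord segment taken in these differences was not tested. Hoxd10 lost its call without ceftriaxone array 3 or 4 or wildtype array 3 or 4 (adjusted p from 0.0522 to 0.0725), and Hoxa10 without ceftriaxone array 2, 3 or 4 or wildtype array 3 or 4 (adjusted p from 0.0871 to 0.103).

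Genes of the SMN complex and small nuclear ribonucleoprotein assembly gave 0 calls among 10 (median 0.02). Of 13 core ribonucleoprotein genes 1 was higher (against 3.29% of all probe sets). This was Snrpa1 of the U2 particle, at 1017.7, 1770.4, 1076.7 and 1011.2 in wildtype and 2130.8, 2173.5, 2331.9 and 2029.5 in ceftriaxone arrays (0.86 ± 0.15, adjusted p = 0.00767). Without wildtype array 2, which read highest of its group, 5 of the 13 were higher (against 6.29%). Heat shock chaperones were split, with Dnajb4 higher (0.33, adjusted p = 0.0215) and Chordc1 (-0.67, adjusted p = 0.0118) and Hsph1 (-0.52, adjusted p = 0.0482) lower among 18. Of 23 genes of the unfolded protein and integrated stress response, Sesn2 was higher and the endoplasmic reticulum proteins Manf (-0.29, adjusted p = 0.0228) and Sdf2l1 (-0.54, adjusted p = 0.0355) were lower. Over all probe sets 3.29% were higher and 0.928% lower. With Xist as a covariate no gene of the heat shock or unfolded protein lists passed. Dnajb4 lost its call without ceftriaxone array 2, 3 or 4 or wildtype array 3 or 4 (adjusted p from 0.0522 to 0.0681), and Hsph1 without ceftriaxone array 2, 3 or 4 or wildtype array 1, 3 or 4 or vehicle array 1, 2, 3 or 4 (adjusted p from 0.0614 to 0.126). Manf lost it without ceftriaxone array 3 or 4 or wildtype array 3 (adjusted p from 0.0636 to 0.0751) and Sdf2l1 without ceftriaxone array 1, 2, 3 or 4 or wildtype array 1 or 4 or vehicle array 4 (adjusted p from 0.0511 to 0.107).

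Other large rises were spread over genes of no list and single members of lists. Cartpt, a neuropeptide precursor, read 342.4, 250.7, 402.5 and 481.8 in wildtype, 990.4, 982.3, 838.8 and 911.5 in SMA vehicle and 815.3, 806, 837 and 677.1 in SMA ceftriaxone arrays, so that both SMA groups were separate from wildtype (1.09 ± 0.16, adjusted p = 0.00379). Mkrn3, an imprinted ubiquitin ligase gene, read 412.7, 293.2, 338.8 and 255.7, 1324.8, 1253, 1166.7 and 1122 and 769.4, 657.4, 917.7 and 495.1, between the other groups (1.08 ± 0.17 over wildtype, adjusted p = 0.00609). Igfbp3, which binds insulin-like growth factors, was the only member called among 11 genes of the insulin-like growth factor axis, higher by 1.17 ± 0.25 (adjusted p = 0.0212), but lost its call without ceftriaxone array 2 or 4 or wildtype array 3 (adjusted p from 0.055 to 0.0643). The clock repressor gene Cry2 (0.57, adjusted p = 0.035) and the matrix gene Fbln1 (0.35, adjusted p = 0.0215) were the only members called among 15 clock and 18 collagen and matrix genes. Over all probe sets 3.29% were higher. With Xist as a covariate no gene of the insulin-like growth factor, clock or collagen lists passed. Cartpt passed then (adjusted p = 0.0458), and Mkrn3 did not (0.0577). Cry2 lost its call without ceftriaxone array 2, 3 or 4 or wildtype array 3 or 4 or vehicle array 2 (adjusted p from 0.0536 to 0.103) and Fbln1 without ceftriaxone array 2, 3 or 4 or wildtype array 3 (adjusted p from 0.0571 to 0.0749).

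Among the falls, Tesc, a calcium-binding protein gene, read 1008.8, 651.9, 787.6 and 917.3 in wildtype, 236.4, 377, 246.6 and 294.3 in SMA vehicle and 370.8, 500.9, 306.6 and 381.1 in SMA ceftriaxone arrays. Both its probe sets were lower, by -1.08 and -1.06. Anxa5, a phospholipid-binding annexin, read 3403.7, 3322.7, 4103.2 and 3861.3, 1219.4, 1088.8, 833.5 and 879.5 and 2256.1, 2096.1, 1921.8 and 2165.6, between the other groups (-0.79 ± 0.12 against wildtype, adjusted p = 0.00389). The small GTPase gene Rab37 (-0.95 against wildtype, 1.20 against SMA vehicle) and the G protein subunit gene Gng11 (-0.80 and 1.08) also lay between. Gng11 lost its call without ceftriaxone array 1, 2, 3 or 4 or wildtype array 1, 3 or 4 or vehicle array 2, 3 or 4 (adjusted p from 0.0529 to 0.111). Mmgt2 (-0.94) lost its call without ceftriaxone array 1, 2, 3 or 4 or wildtype array 3 or vehicle array 3 (adjusted p from 0.0575 to 0.101), and Sft2d2 (-0.76) without ceftriaxone array 2, 3 or 4 or wildtype array 3 (adjusted p from 0.0618 to 0.0873). With Xist as a covariate Anxa5 passed (adjusted p = 0.0206). Tesc (0.0769), Rab37 (0.0632), Gng11 (0.07725), Mmgt2 (0.1319) and Sft2d2 (0.08735) did not.

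For 5 genes the probe sets disagreed. Trmt112, a partner of methyltransferases, was higher on one probe set (1.07 ± 0.13, adjusted p = 0.00197) and at 0.01 on the other (adjusted p = 0.963). Irak1, a kinase of interleukin receptors, was lower on one (-1.20 ± 0.16, adjusted p = 0.00219) and between -0.17 and -0.03 on the other 3, none called. Anp32a, a phosphatase inhibitor, was at -1.01 on one and at -0.02 and 0.02 on the others. The transporter gene Slco3a1 was at -0.96, -0.36 and -0.31, of which the last did not pass. Arf6, a GTPase of membrane traffic, was at -0.76 on the called probe set and not called on the others, and lost its call without ceftriaxone array 1, 2, 3 or 4 or wildtype array 3 (adjusted p from 0.054 to 0.0871). For Trmt112, Irak1, Anp32a and Arf6 the call rests on 1 probe set, and for Slco3a1 on 2 of 3. With Xist as a covariate the probe sets of largest change of Trmt112, Irak1 and Slco3a1 passed. Those of Anp32a (adjusted p = 0.0644) and Arf6 (0.1908) did not.

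The remaining lists held 0 calls with all arrays. They were microglia (18 tested), endothelium (16), GABA and glycine transmission (12), interferon-induced (11), complement (6), immediate early (10), cell cycle (21), oxidative phosphorylation (35), ribosomal protein (23), iron (8), X-linked (4), thymus (5), skeletal muscle (5), red blood cell (2), Schwann cell and ganglion (4), ependyma (4) and fat cell genes (5). The median of the cell cycle genes was -0.65 with all arrays and 0.04 without wildtype array 2, which was highest of the 8 arrays for 23 of 24 of them. The median of the interferon-induced genes was -0.48 with all arrays and 0.23 without wildtype arrays 2 and 3, where 3 of 11 were higher (against 371 of 13575 probe sets). These 2 arrays had the highest levels of this list and were left out after seeing the data. Muscle genes had mean levels of 6.33 to 7.07 in wildtype and 5.62 to 6.37 in ceftriaxone arrays, and 16 of 19 were below the filter's signal of 125 on all 4 ceftriaxone arrays. Over all lists, 46 of 505 genes were called with all arrays (against 4.21% of all probe sets), 91 without wildtype array 2 (against 10.6%) and 55 without wildtype arrays 2 and 3 (against 4.56%).

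**Figure D5:**
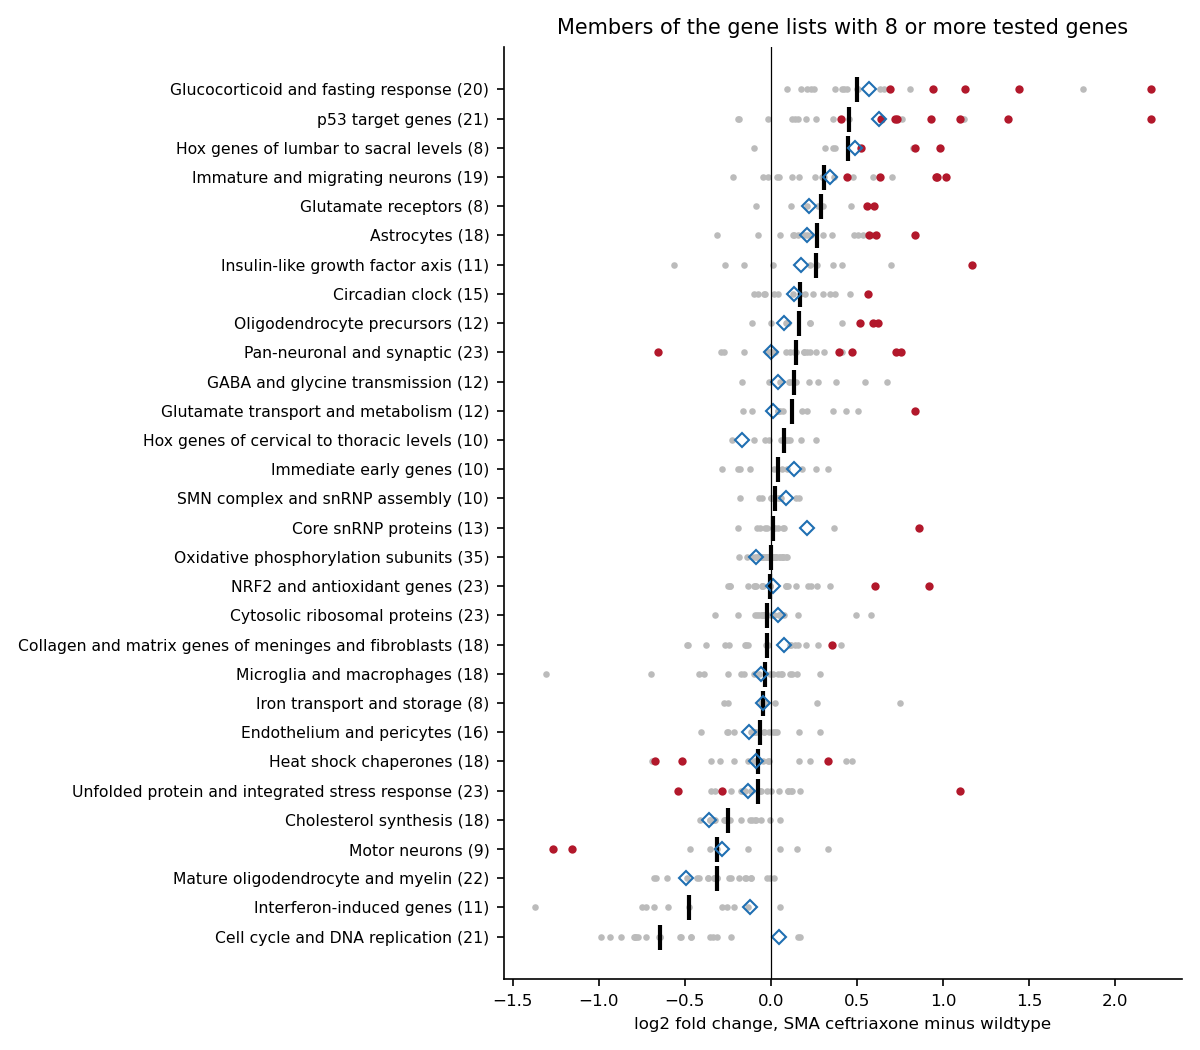
Log2 fold change of SMA ceftriaxone over wildtype (x axis) for each tested member of the lists with 8 or more tested genes (y axis, number tested in parentheses). Red points passed an adjusted p of 0.05, grey points did not, black bars are medians with all arrays and blue diamonds medians without wildtype array 2. The median of the cell cycle list moves from -0.65 to 0.04 and that of the p53 list from 0.45 to 0.63.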

How the data were processed

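RNA of 12 spinal cord samples was hybridised to 1 array each, and groups were taken from the titles. The submitters' processing notes name MAS5, and the deposited values are its signal intensity, not log-transformed. They arrived scaled to a common level: with the lowest and highest 2% of probe sets trimmed, the mean was 700.2 to 701.7 on each. Detection calls were not used, so nothing could be called absent, and the number of arrays limits the precision (the standard error of a log2 difference had a median of 0.12).

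Of 22690 probe sets, 64 controls were left out. Of the other 22626, 20380 had 1 gene symbol in the platform annotation of 2016 (20351 found by gene ID in the mouse reference GRCm38.p6), 691 several and 1555 none; the latter kinds were tested but not named. An offset of 16 was added before log2, which shrinks differences of dim genes. Probe sets whose mean log2 value exceeded the 40th percentile were tested (13575, a geometric mean signal of at least 125). In R 4.3.3, limma 3.58.1 fitted 1 mean per group to the 12 arrays (moderated with a trend on intensity, leaving 9 residual degrees of freedom). Each adjusted p is two-sided, with Benjamini-Hochberg adjustment across the 13575, and called under 0.05. Smn1, Eif2s3y, Rag1 and Cd3d lie under the filter and were fitted with all 22626. Lists use the brightest probe set per gene and are described by counts and medians.

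The groups to compare, the gene lists and the members named were chosen with earlier results of these data known. Named were 12 genes with the largest rise and 12 with the largest fall, from probe sets called both with and without wildtype array 2 whose groups did not overlap, up to 6 members of each list, and Smn1, Slc1a2, Nfe2l2, Gfap, Xist, Eif2s3y, Rag1 and Cd3d. Members named without a call (Perp, Psrc1, Mdm2, Prph, Sult1a1, Slc18a3, Slc5a7, Klk6, Anln and Msmo1) were chosen after their values were seen. Some genes are not reported here.

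The alternatives tried changed the offset (1 or 64), the normalization (quantile, or medians set equal), the filter (none, or the 60th percentile), the trend, array weights and the arrays fitted. Others took the replicate number as a block, took Xist signal or the 3 prime to 5 prime Gapdh ratio as a covariate, averaged a gene's probe sets, or left out each array. Leaving out wildtype arrays 2 and 3 together was added after seeing the data. The model was tested on simulated data with changes placed in 200 of 13575 probe sets: for this comparison it found 38 of 67 log2 changes of 0.5. It found 60 of 67 changes of 1 and 64 of 66 changes of 2, and made 4 false calls. The simulated noise was normal and independent between probe sets. It held no thymus transcripts on an array and no difference in sex, so the 4 false calls do not give the rate in the real arrays.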

Additional observations from a re-analysis of the deposited data

Results flagged for a closer look

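In groups of 4 arrays, a value was singled out where its gap to the nearest other array exceeded Dixon's 95% limit. Of 218 groups tested this way (the named genes and the list levels in wildtype and SMA ceftriaxone), 19 passed, and chance puts about 5% of groups past the limit. Values are log2(signal + 16), or the mean of it over a list.

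Wildtype array 2 accounted for most of them. It was high for Cd3d, a T cell receptor component (12.45, next 4.55), for Snrpa1 (10.80, next 10.09) and for the thymus (11.20), cell cycle (10.55) and p53 target (8.90) lists. It was low for Ptprz1 (10.34), Gstm1 (9.84) and Hsph1 (10.92) and for the astrocyte (10.78), pan-neuronal (11.35) and cholesterol (10.85) lists. The part of the thymus transcripts in the low values was not tested.

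Wildtype array 3 was high for Xist (11.03) and low for Eif2s3y (4.10), the Y chromosome list (4.34) and Sdf2l1 (8.39, next 8.69). Among the ceftriaxone arrays, array 2 was high for Cd3d (6.13, next 4.34) and low for the pan-neuronal list (11.77, next 11.85), array 1 was high for Pdgfra (11.68) and array 4 for Klf15 (9.55, next 8.82).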

How the results depend on the processing

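The count of 572 called probe sets became 236 with median centring, 1826 with array quality weights, 111 with only the 8 arrays compared, 80 with Xist as a covariate and 213 with the Gapdh ratio as a covariate. With the replicate number as a block it was 344; the numbers did not pair the arrays, since deviations of same-numbered arrays correlated at -0.08 to 0.13. Leaving out each array gave 164 (ceftriaxone array 3) to 1434 (wildtype array 2). The 25 changes over 2-fold became 13 with an offset of 64, 48 without a filter, 15 with a filter at the 60th percentile and 47 with array weights, and 16 to 39 with each array left out. The 1434 calls without wildtype array 2 became 818 with Xist as a covariate and 619 without wildtype array 3 as well. Called list members went from 46 to 91 without wildtype array 2. Smn1 was called under every alternative run, and no called gene that is named or in lists changed sign; Slc1a2 (-0.24 to 0.17) and Gfap (-0.12 to 0.24), which were not called, did. Of 62 called genes that are named or in lists, 62 were called without wildtype array 2, 16 with Xist as a covariate, 51 with that covariate and without wildtype array 2, and 12 under every alternative that tested them, also with a gene's probe sets averaged: Cdkn1a, Plk2, Aen, Dcxr, Cartpt, Trmt112, Irak1, Slco3a1, Anxa5, Nnat, Crmp1 and Hoxd9. The filter at the 60th percentile removed Dcxr, Trmt112 and Slco3a1. With only the 8 arrays compared, 37 of the 62 lost their call. The causes were not tested. The median of all probe sets stayed at 0.01 to 0.02 under each scaling.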
